A study of Caenorhabditis elegans with 16 samples.

Results

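The comparison described here pools L1 larvae of 2 auxin-inducible degron strains that carried the eft-3p::tir-1 transgene and sets them against larvae of the same 2 degron strains that lacked it. All 16 ATAC-seq libraries of the series entered it, 8 in each arm. The undepleted arm held 4 libraries each of rpoa-2::degron and rrb-1::degron larvae, collected after 18 h. The depleted arm held 4 libraries each of rpoa-2::degron; eft-3p::tir-1 and rrb-1::degron; eft-3p::tir-1 larvae, collected after 24 h because these strains grow more slowly. All larvae hatched and grew on 1 mM auxin, and the tissue was the whole animal. The sample labels use RRB-1 for the protein called GRWD-1 below. Every depleted library therefore differed from every undepleted library in the transgene, the strain and the hours of growth as well as in the degraded protein, and in this pooled contrast these cannot be told apart. Larvae of a strain were grown together and split into the 4 replicates before nuclei were made, so p-values cover the spread between splits of a growth and not that between growths.

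ATAC-seq uses the Tn5 transposase to insert adapters into open DNA, so that reads collect at promoters, enhancers and other accessible regions. In the auxin system, the plant F-box protein TIR1 binds a degron-tagged protein when auxin is present and sends it to the proteasome, and the eft-3 promoter drives TIR1 broadly. RPOA-2 is a core catalytic subunit of RNA polymerase I, which transcribes the large ribosomal RNA precursor in the nucleolus. GRWD-1 is a WD-repeat protein whose yeast counterpart, Rrb1, escorts a ribosomal protein into the large subunit as it is assembled. The pooled comparison asks which accessible regions change when either factor is removed, and it also takes in whatever follows from the transgene and from larval age. In C. elegans, larval development is paced by heterochronic genes and by molting, and the genes for cuticle collagens are transcribed in a cycle that repeats with each larval stage.

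The 29131 merged peaks of the series were all tested. Reads in peaks ranged from 2621847 to 9564582 per undepleted library (median 5785820) and from 2337415 to 13010378 per depleted library (median 6604810). Counts were compared with edgeR's quasi-likelihood test, with the degron gene and the replicate number as covariates, and a differentially accessible region (DAR) is a peak with a Benjamini-Hochberg adjusted p under 0.05 over all peaks. A peak carries the name of the gene with the nearest transcript start, which need not be the gene it acts on. Values per library are CPM, in which TMM factors correct each library total. A pair below means the depleted and the undepleted library with the same degron and the same replicate number, of which there were 8. Each of the 6 lists of tissue markers (intestine, epidermis and seam, body wall muscle, pharynx, neurons and germline) had reads in its peaks in all 16 libraries. This does not show which tissues the libraries held.

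Accessibility was increased at 702 peaks and decreased at 383 peaks in depleted larvae, 2.41% and 1.31% of all peaks tested. The changes were small, with a median log2 fold change of 0.33 in increased DARs (5th to 95th percentile 0.24 to 0.55) and of -0.33 in decreased DARs (-0.59 to -0.23). Only 8 increased DARs and 1 decreased DAR went beyond 2-fold. These 8 include 4 adjacent peaks at fdgt-2 and F14E5.8, and the peak at F44A2.10, whose reads came from the GRWD-1 depleted strain. The median over all peaks was 0.0034. Of the increased DARs, 701 had a rise in each degron background, the exception being the F44A2.10 peak, described at the end, and all 383 decreased DARs had a fall in each. In a fit of the same 16 libraries with a depletion effect for each degron, RPOA-2 depletion called 425 increased (1.46%) and 94 decreased peaks (0.323%), and GRWD-1 depletion called 86 (0.295%) and 112 (0.384%), each against its own undepleted strain. Of the pooled DARs, 45 increased and 43 decreased peaks were also called in each background. A further 332 increased and 247 decreased DARs were called in neither and reached the threshold only when a common effect of both depletions was tested. The difference between the depletion effects passed the threshold at 1 peak (0.00343%), and 1650 peaks (5.66%) had an unadjusted p under 0.05 for it.

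The increased and the decreased DARs were not alike in how evenly the libraries carried them. Over the decreased DARs, the median log2 difference within a pair lay between -0.43 and -0.23 in all 8 pairs. Every depleted library had a median below its mean level over the 16 libraries, and every undepleted library had a median above it. Over the increased DARs, the median difference ranged from 0.11 in GRWD-1 replicate 1 to 0.64 in RPOA-2 replicate 2. The depleted libraries of replicate number 2, in either degron, held the highest value of all 16 libraries in 590 of the 702 increased DARs (84.0%), and undepleted RPOA-2 replicate 1 held the lowest value in 359 of them (51.1%). In 206 of the decreased DARs (53.8%) all 8 pairs fell, against 501 of all peaks (1.72%). All 8 pairs rose in 271 of the increased DARs (38.6%), against 497 of all peaks (1.71%). These shares come from the libraries that called the DARs and are given as a description.

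**Figure D1:**
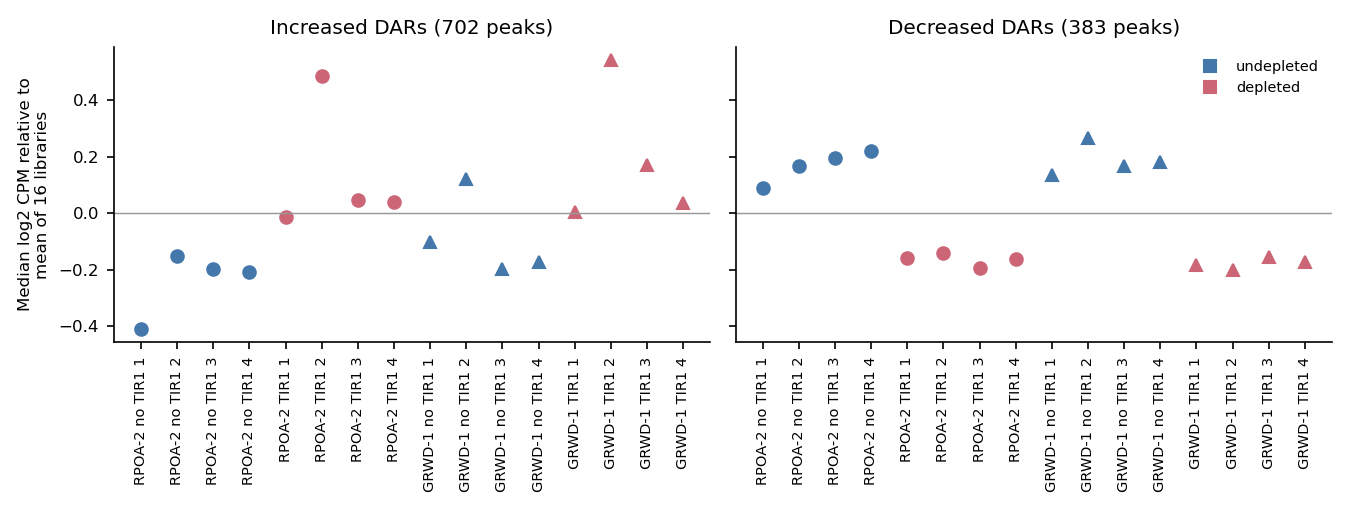
Median log2 CPM of the increased DARs (left, 702 peaks) and the decreased DARs (right, 383 peaks) in each library, relative to the mean of the 16 libraries. Circles are RPOA-2 and triangles GRWD-1 strains, blue is undepleted and red depleted, and the digit is the replicate number. The decreased DARs form a step between the arms, while the increased DARs are highest in the depleted libraries of replicate number 2 (0.49 and 0.54).

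The increased DARs lay mainly between genes. The midpoint was intergenic in 61.3% of the increased DARs, in 29% of the decreased DARs and in 26.8% of all peaks, and it was in an exon in 14.5%, 41.0% and 41.5%. Among the 14427 peaks with a mean of at least 20 CPM, where a small change is easier to detect, 29% were intergenic, and 9.07% of the intergenic peaks were increased DARs, compared with 1.47% of those in exons. For decreased DARs these shares were 2.03% and 2.27%. Most intergenic peaks in a compact genome are promoters and enhancers, so the share of reads that falls into them also describes how a library divides its reads between such elements and gene bodies. This share ranged from 24.6% to 28.8% in undepleted libraries (median 26.6%) and from 26.3% to 29.9% in depleted libraries (median 27.5%), so the arms overlapped. It was higher in the depleted library in 7 of 8 pairs, by a mean of 1.21 percentage points (exact permutation of the arms within the 8 pairs, two-sided p = 0.0234, unadjusted and chosen after the values were seen). The depleted libraries of replicate number 2 had the highest shares, 29.7% and 29.9%, and undepleted RPOA-2 replicate 1 had the lowest, 24.6%. With the share as an additional covariate in the edgeR fit, 53 peaks were increased and 183 decreased, of which 47 and 133 were also DARs without it. The share is made from the same reads as the DARs, and its part in the increased DARs beyond this was not tested.

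**Figure D2:**
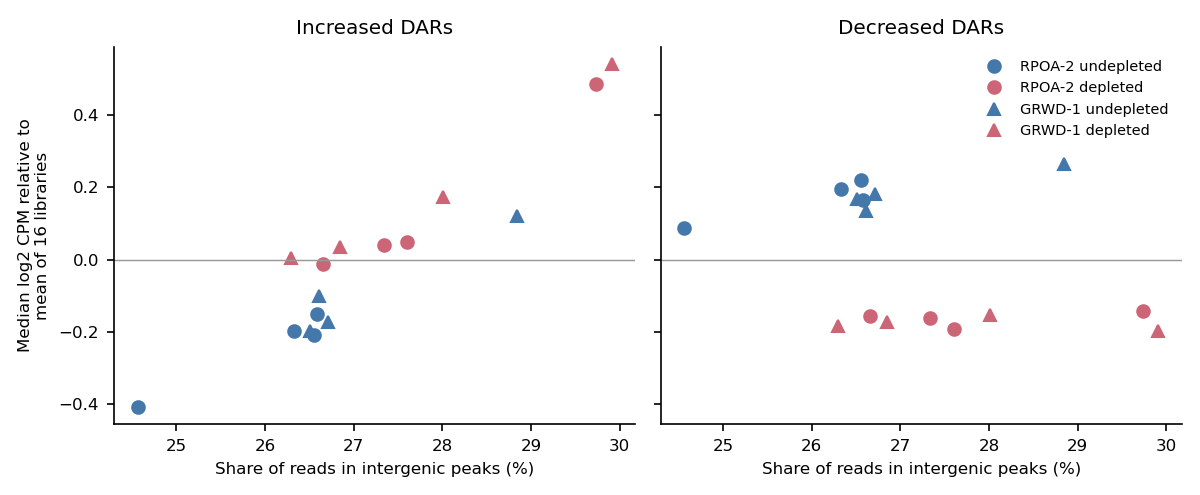
Share of a library's reads in intergenic peaks (x axis, percent) against the median log2 CPM of its increased DARs (left) and decreased DARs (right) relative to the mean of 16 libraries. Circles are RPOA-2 and triangles GRWD-1, blue is undepleted and red depleted. Increased DARs are low at 24.6% and high at 29.7% and 29.9%. The decreased DARs lie above 0 in undepleted and below 0 in depleted libraries. They were called on this contrast, so their separation of the arms is no test of the share.

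As a description, each replicate number was left out in turn and the DARs of the other 12 libraries were followed in the 4 left out. Of the increased DARs, 89.6%, 99.1%, 92.7% and 71.6% also rose in replicate numbers 1, 2, 3 and 4, with median log2 differences of 0.18, 0.57, 0.28 and 0.10. Of the decreased DARs, 89.6%, 90.0%, 92.3% and 84.3% also fell, with medians of -0.20, -0.37, -0.34 and -0.25. Over all peaks, between 48.4% and 51.6% had the same sign. Both directions carried over to the left-out libraries, the increases with a wider range of sizes than the decreases. These libraries shared the growth, strain, transgene and larval age with those that called the DARs. The shares therefore cannot show whether the DARs hold in other growths. Without replicate number 2 the remaining 12 libraries called 117 increased and 120 decreased DARs, and in the fit without the replicate number as a covariate 92 peaks were increased and 99 decreased, all of them among the DARs above.

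Among the gene lists, the cuticle collagens held the most decreased DARs, while the histone genes had a larger share of their peaks decreased (20.0% of 25). Cuticle collagens are short secreted collagens that the epidermis lays down in the new cuticle before each molt, and mutants in the dpy, sqt and rol genes among them have altered body shape. Of the 189 peaks nearest to a collagen gene, 28 (14.8%) were decreased DARs, at 24 genes, and 0 were increased, beside 1.31% and 2.41% over all peaks. The median log2 fold change over the 189 peaks was -0.08, with 131 of them below 0. The 28 decreased peaks ranged from -0.84 at col-145 to -0.21 at col-48. All 8 pairs fell in 17 of them, and in 11 the arms did not overlap. Of all 383 decreased DARs, all 8 pairs fell in 206 (53.8%), against 1.72% of all peaks, and the arms did not overlap in 57. The number without overlap among all peaks is not given, so the 11 and the 57 only describe peaks called on this contrast. The reads of all 189 peaks together came to 9014 to 10438 CPM in undepleted larvae (median 9414) and to 8062 to 9525 CPM in depleted larvae (median 8661), so that the summed level overlapped between the arms. The number of decreased collagen peaks was 21 with the intergenic share as a covariate, 15 without replicate number 2 and 13 without the replicate number in the fit, and 0 collagen peaks were increased in each of these.

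At col-10 (WBGene00000599), the peak at its start on chromosome V, from 9164887 to 9165767 (WBcel235), had between 51.6 and 106 CPM in undepleted larvae (median 68.3) and between 32.2 and 49.1 CPM in depleted larvae (median 41.5). The arms did not overlap, and the pooled log2 fold change was -0.80 (SE 0.0864, adjusted p = 1.83e-09, edgeR), with -0.87 in RPOA-2 and -0.75 in GRWD-1 strains. Its neighbours col-144 and col-145 also held decreased DARs, and 3 of the 5 peaks across these 3 genes were DARs. The col-145 peak, the steepest fall of the list (-0.84), had 18.8 to 41.1 CPM in undepleted and 10.7 to 24.4 CPM in depleted larvae. There the arms overlapped, and 7 of 8 pairs were lower. At sqt-1 (WBGene00005016), a collagen gene whose mutants are short or roll, the peak over its 5′ untranslated region on chromosome II, from 11337713 to 11337943, had 12.57 to 19.4 CPM in undepleted larvae (median 16.0) and 6.58 to 10.4 CPM in depleted larvae (median 9.32). Its log2 fold change was -0.80 (SE 0.113, adjusted p = 2.06e-06, edgeR), with -0.79 and -0.80 in RPOA-2 and GRWD-1 strains. Across the body of the collagen gene dpy-13 (WBGene00001074, chromosome IV, 4235285 to 4237143), the level fell from 141 to 191 CPM (median 163) to between 96.3 and 120 CPM (median 105), a log2 fold change of -0.60 (SE 0.067, adjusted p = 5.17e-09, edgeR). The peak over sqt-3 (WBGene00005018), a collagen needed from embryogenesis on, had 141 to 169 CPM in undepleted and 95.5 to 124 CPM in depleted larvae, a log2 fold change of -0.58 (SE 0.0661, adjusted p = 8.1e-09, edgeR). At these peaks of col-10, sqt-1, dpy-13 and sqt-3, each depleted library lay below each undepleted library, which held for 11 of the 28 decreased collagen peaks.

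**Figure D3:**
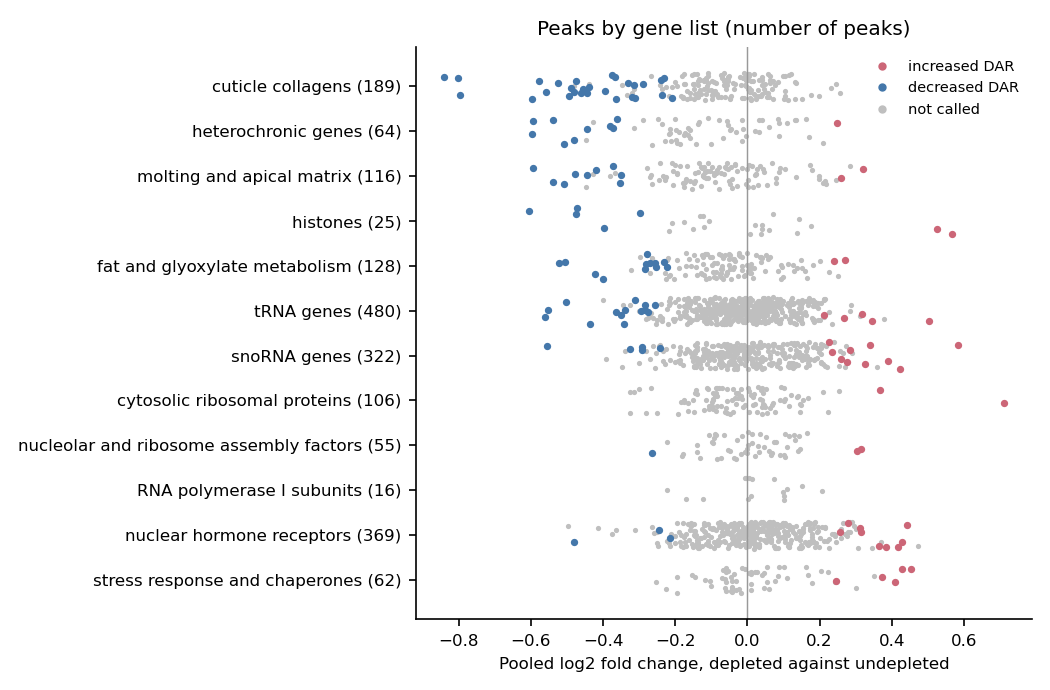
Pooled log2 fold change of every peak assigned to 12 of the gene lists, with the number of peaks in parentheses. Each point is a peak, blue if a decreased DAR, red if an increased DAR and grey otherwise, and the vertical scatter within a list is random. Collagens (28 decreased, 0 increased of 189) and heterochronic genes (9 and 1 of 64) lie mostly on the left, while RNA polymerase I subunits have 0 DARs of 16 peaks.

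Some genes that time larval development also had decreased peaks. Of the 64 peaks nearest to heterochronic genes, 9 (14.1%, beside 1.31% of all peaks) were decreased DARs at 5 of 17 genes and 1 was increased, with a median log2 fold change of -0.16 over all 64, of which 15 were above 0. Among 116 peaks of molting and apical matrix genes, a list that also holds lin-42, 9 were decreased (7.76%) at 3 genes and 2 increased (1.72%, beside 2.41% of all peaks), with a median of -0.10. Without replicate number 2 the decreased peaks numbered 5 in the heterochronic and 3 in the molting list, with the intergenic share as a covariate 6 and 4, and without the replicate number in the fit 7 and 5. Leaving out 1 library gave 8 to 11 and 5 to 11. lin-42 (WBGene00018572), the homologue of the circadian gene period and a regulator of the timing of molts, accounted for 5 decreased DARs in either list. Its strongest peak, on chromosome II from 1238783 to 1241019, had 187 to 226 CPM in undepleted larvae (median 199) and 114 to 143 CPM in depleted larvae (median 135), a log2 fold change of -0.59 (SE 0.063, adjusted p = 1.3e-09, edgeR). The arms did not overlap, and the values were -0.62 in RPOA-2 and -0.57 in GRWD-1 strains. Across the lin-42 locus 6 of 12 peaks were decreased DARs, the largest number at any locus together with the 6 of 6 peaks at znf-782, a zinc finger gene on chromosome IV. The peak at the start of znf-782 (WBGene00021931, 1067230 to 1067910) had 68.2 to 107 CPM in undepleted and 33.4 to 56.3 CPM in depleted larvae, a log2 fold change of -0.77 (SE 0.0795, adjusted p = 4.67e-10, edgeR).

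The peaks at the microRNA genes lin-4 and mir-48 of the heterochronic pathway were decreased. The peak named for the noncoding gene F59G1.12 on chromosome II, from 5901167 to 5902481, overlaps lin-4, the microRNA that represses lin-14 to end the first larval programme. It had 134 to 186 CPM in undepleted larvae (median 161) and 74.4 to 110 CPM in depleted larvae (median 90.7), with no overlap between the arms. Its log2 fold change was -0.80 (SE 0.0691, adjusted p = 1.24e-12, edgeR), -0.60 in RPOA-2 and -0.99 in GRWD-1 strains, and all 3 peaks of that locus were decreased DARs. The gene mir-48 belongs to the let-7 family and lies on chromosome V, and its peak from 14364438 to 14364983 had 25.9 to 55.5 CPM in undepleted and 19.6 to 29.5 CPM in depleted larvae. The arms overlapped, and the log2 fold change was -0.60 (SE 0.0932, adjusted p = 1.55e-05, edgeR). A peak further along the same locus, from 14368208 to 14369002, fell more steeply, from 57.5 to 78.9 CPM down to 27.5 to 44.4 CPM, a log2 fold change of -0.79 (SE 0.0842, adjusted p = 1.45e-09, edgeR). The 4 peaks across that locus, which extends towards the homeobox gene unc-39, were all decreased DARs.

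Decreases were also called at other regulators of developmental timing. The peak in an intron of daf-12, the nuclear receptor for the steroid hormones that promote reproductive growth, had a log2 fold change of -0.48 (SE 0.0768, adjusted p = 2.33e-05, edgeR), from a median of 39.6 CPM to 28.8 CPM. Peaks of dre-1, an F-box gene, and mab-10, a cofactor of the terminal differentiation factor LIN-29, had values of -0.38 and -0.36 (adjusted p = 0.00278 and 0.000978, edgeR). blmp-1, a zinc finger factor of the oscillating larval genes, was the nearest gene of 3 decreased DARs between -0.48 and -0.35, with another (-0.27) named for the neighbouring noncoding gene F25D7.6, and let-4, an extracellular matrix gene of the epidermis, had -0.35 (adjusted p = 0.00169, edgeR). Of the 29 loci with at least 3 decreased DARs, 3 were picked for timing after their values were seen. They were F13D11.3 with hbl-1 (4 of 8 peaks, median -0.38), lin-14 with spp-9 (3 of 4, median -0.33) and kin-20 (3 of 7, median -0.30). Loci are named by the nearest protein-coding genes, unlike single peaks, so not every DAR in them belongs to the timing gene. The timing genes hbl-1, lin-14 and kin-20 are a Hunchback homologue, the target of lin-4 and a casein kinase that acts with LIN-42. Loci of like size not picked for timing included trcs-2 to atf-2 (5 of 10, median -0.36) and ttr-35 with ets-4 (4 of 7, median -0.33). The lipocalin genes lpr-3 to lpr-6 of the apical matrix, on chromosome X, held 5 decreased DARs among 9 peaks (median -0.31). The single increased heterochronic peak was at the start of lin-28, an RNA-binding protein of the early larval programme, with a log2 fold change of 0.25 (SE 0.0722, adjusted p = 0.0376, edgeR) and 5 of 8 pairs higher. It was not called without replicate number 2.

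**Figure D4:**
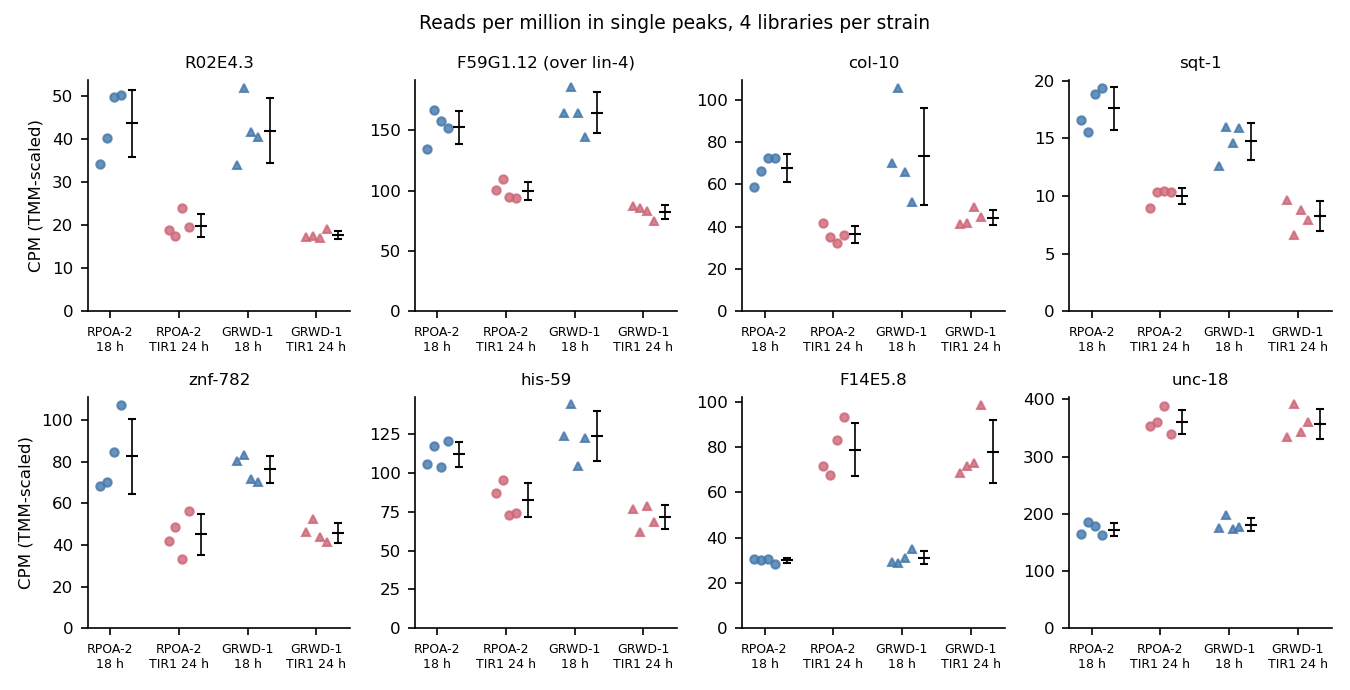
CPM of 8 named peaks in the 4 libraries of each strain, with the mean and SD beside the points. Blue is undepleted (18 h), red is depleted (24 h), circles are RPOA-2 and triangles GRWD-1 strains. Each of the 6 falling peaks separates the arms in both degrons, and F14E5.8 and unc-18 rise from 28.5 to 35.1 CPM to 67.5 to 98.5 CPM and from 162 to 198 CPM to 334 to 392 CPM.

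The largest fall of all was at R02E4.3 (WBGene00044724) on chromosome X, a protein-coding gene of no named function here, where the peak just before the start from 4101958 to 4102559 had 33.8 to 51.8 CPM in undepleted larvae (median 40.9) and 16.8 to 23.8 CPM in depleted larvae (median 18.1). The log2 fold change was -1.205 (SE 0.0876, adjusted p = 1.89e-15, edgeR), with -1.14 in RPOA-2 and -1.26 in GRWD-1 strains. The 12 largest falls with all 8 pairs lower also included peaks nearest to F55C12.9 (-0.67), 21ur-13979 (-0.65), F27D9.11 (-0.64) and dpy-20 (-0.60). Of the 12 falls, only F55C12.9 was not called with the intergenic share as a covariate (adjusted p = 0.104, edgeR). Some of the core histone genes, which are transcribed mainly in dividing cells, also had decreased peaks. Of 25 peaks at histone genes, 5 (20.0%) were decreased and 2 (8%) increased, beside 1.31% and 2.41% of all peaks, and over all 25 there were 12 values above 0 and 13 below. The decreased peaks numbered 3 without replicate number 2 and 3 without the replicate number in the fit. The peak between his-59 and his-60 on chromosome IV had 104.01 to 144 CPM in undepleted and 62.1 to 95.6 CPM in depleted larvae, a log2 fold change of -0.61 (SE 0.0748, adjusted p = 6.79e-08, edgeR), and the other decreases were at his-7, his-6, his-62 and his-64 (-0.47 to -0.30). Histone genes are near-identical copies, so reads could be shared between them. All 5 falls had larger values in GRWD-1 than in RPOA-2 strains, but none of the differences passed the threshold. The 2 increases were both at genes for linker histones of the H1 type, hil-1 (0.57, adjusted p = 1.51e-05) and hil-7 (0.53, adjusted p = 3.96e-07, both edgeR), and all 8 pairs rose at each. The hil-7 peak had 116 to 191 CPM in undepleted and 170 to 340 CPM in depleted larvae, so the arms overlapped, and it was still called with the intergenic share as a covariate, whereas hil-1 was not (adjusted p = 0.00659 and 0.275, edgeR).

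Fat and carbohydrate metabolism gave 12 decreased peaks (9.38%) at 8 genes and 2 increased peaks (1.56%) among 128, beside 1.31% and 2.41% of all peaks, with a median log2 fold change of -0.07. The decreases included acdh-1, an acyl-CoA dehydrogenase of propionate breakdown (-0.52, SE 0.122, adjusted p = 0.00597, edgeR), pck-2, a phosphoenolpyruvate carboxykinase (-0.40, SE 0.0709, adjusted p = 0.000157, edgeR), dhs-28 of peroxisomal beta-oxidation with 3 DARs, the trehalose synthase gene tps-2, and the fatty acid synthesis genes fasn-1 and pod-2 (-0.26 to -0.22). At acdh-1 all 4 peaks across the gene and its neighbour C55B7.3 were decreased, with a median of -0.63. The lipase gene atgl-1 was nearest to a DAR of each direction. Peaks named for dhs-28 also reach into gei-15 and atg-2. With the intergenic share as a covariate, 2 peaks of this list were decreased, without the replicate number in the fit there were also 2, and without replicate number 2 there were 4. Beside these, the genes for methionine synthase, metr-1, and methylenetetrahydrofolate reductase, mthf-1, which work in the same methyl cycle, held 4 of 4 and 3 of 5 peaks as decreased DARs (medians -0.43 and -0.40), and were named after their values were seen.

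For genes of the ribosome itself, few peaks changed. Of 16 peaks at RNA polymerase I subunit genes, 0 passed the threshold in either direction, and their median log2 fold change was 0.01. Of 106 peaks at the cytosolic ribosomal protein genes, 2 were increased (1.89%) and 0 decreased, with a median of -0.03. Of 55 peaks at nucleolar and ribosome assembly genes, 2 were increased and 1 decreased. These shares stand beside 2.41% and 1.31% over all peaks. The decrease was at ncl-1 (WBGene00003559, chromosome III), a B-box protein that restrains nucleolar size and ribosomal RNA synthesis, whose peak from 7733400 to 7736866 had 201 to 246 CPM in undepleted and 166 to 199 CPM in depleted larvae. Its log2 fold change was -0.27 (SE 0.0612, adjusted p = 0.00525, edgeR), and the arms did not overlap, but it was not called without the replicate number in the fit (adjusted p = 0.135) or with the intergenic share as a covariate (0.0674, both edgeR). The increases were at riok-1, a kinase of small subunit maturation (0.31, adjusted p = 0.0221), and emg-1, named for the methyltransferase of the small subunit (0.30, adjusted p = 0.0209, both edgeR), with 7 and 6 of 8 pairs higher. Neither was called without replicate number 2.

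The larger of the ribosomal protein increases was at rps-27 (WBGene00004496) on chromosome V. Its peak, from 103667 to 104277, had 17.7 to 23.1 CPM in undepleted larvae (median 20.5) and 28.3 to 46.4 CPM in depleted larvae (median 32.5), a log2 fold change of 0.71 (SE 0.0855, adjusted p = 3.66e-08, edgeR) with no overlap of the arms. Beside it, the peak upstream of picd-1, from 104439 to 104640, had 3.69 to 7.23 CPM in undepleted and 8.18 to 16.202 CPM in depleted larvae, with a log2 fold change of 1.03 (SE 0.136, adjusted p = 3.81e-07, edgeR). The midpoint of the rps-27 peak lies in an exon of that gene and that of the picd-1 peak between genes. Here 3 adjacent peaks were increased over 1.33 kb, and the nearest peaks on either side, at -1.398 kb and 2.70 kb from the picd-1 peak, were not called. The other ribosomal protein increase, at rps-24 (0.37, adjusted p = 0.0078, edgeR), overlapped between the arms.

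The genes whose product RNA polymerase I makes lie in a tandem array that the assembly represents by a few copies, so reads of the whole array fall into very few peaks. The peak over rrn-1.1, rrn-2.1 and rrn-3.1 on chromosome I, from 15063578 to 15068104, held 36563 to 49314 CPM in undepleted larvae (median 44374) and 25462 to 53214 CPM in depleted larvae (median 36591). The pooled log2 fold change was -0.29 (SE 0.0764, adjusted p = 0.0187, edgeR), but 2 of 8 pairs were higher. The values were -0.51 (adjusted p = 0.00165) in RPOA-2 and -0.07 (adjusted p = 0.891, both edgeR) in GRWD-1 strains, and the difference between them did not pass the threshold over all peaks. A short peak beside it, over rrn-3.1 and F31C3.14 from 15068200 to 15068595, had a log2 fold change of -0.34 (SE 0.0733, adjusted p = 0.00228, edgeR), with -0.41 in RPOA-2 and -0.28 in GRWD-1 strains and 7 of 8 pairs lower. The peak over the 5S gene rrn-4.15 on chromosome V had -0.02 (adjusted p = 0.911, edgeR). Of all reads in peaks, the 3 peaks over ribosomal RNA genes held 3.83% to 4.81% in undepleted (median 4.49%) and 2.70% to 5.02% in depleted larvae (median 3.54%). The mean difference within pairs was -0.75 percentage points (exact permutation within pairs, two-sided p = 0.0469, 0.141 adjusted over 12 peak classes), so the difference did not pass the threshold after adjustment. The peak was not called without the replicate number as a covariate (adjusted p = 0.551), nor without replicate 3 of the undepleted RPOA-2 strain (0.124) or of the depleted RPOA-2 strain (0.0697, all edgeR).

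At small RNA genes, called peaks of both directions were found. At tRNA genes, which RNA polymerase III transcribes, 14 of 480 peaks were decreased (2.92%) and 5 increased (1.04%), and the steepest decrease, at WBGene00022967 on chromosome II, was -0.56 (SE 0.0826, adjusted p = 4.27e-06, edgeR), from a median of 65.9 to 46.0 CPM. At genes for snoRNAs, the guides of ribosomal RNA modification, 10 of 322 peaks were increased (3.11%) and 5 decreased (1.55%). Over all peaks the shares were 2.41% increased and 1.31% decreased, so the snoRNA shares were near those of all peaks. The largest increase, at C17D12.8 on chromosome I in an intron of pcmd-1, was 0.58 (SE 0.0757, adjusted p = 2.48e-07, edgeR), with 29.04 to 53.9 CPM in undepleted and 47.1 to 82.2 CPM in depleted larvae. Increased snoRNA peaks numbered 2 without replicate number 2 and 1 with the intergenic share as a covariate, and decreased tRNA peaks numbered 3 and 8. As snoRNA genes often lie in introns, such a peak need not belong to the snoRNA. At T25C12.12, for example, both decreased peaks lie in the 3′ untranslated region of lin-14.

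The largest rises with all 8 pairs higher lay in short stretches whose neighbouring peaks were not called. On chromosome II, 4 adjacent peaks within 2.86 kb at fdgt-2 and F14E5.8 rose by 1.32, 1.05, 1.14 and 1.103 on the log2 scale. The largest of them, from 8418614 to 8419890 (SE 0.0717, adjusted p = 7.29e-21, edgeR), overlaps fdgt-2 and had 28.5 to 35.1 CPM in undepleted larvae (median 30.3) and 67.5 to 98.5 CPM in depleted larvae (median 72.4). The other 6 peaks within 20 kb lay between -0.20 and 0.05, and the lowest adjusted p among them was 0.186. On chromosome X, the peak of 3929 bp across unc-18 (WBGene00006757), a syntaxin-binding protein of synaptic vesicle release, rose from 162 to 198 CPM (median 177) to between 334 and 392 CPM (median 357). Its log2 fold change was 1.02 (SE 0.062, adjusted p = 9.5e-19, edgeR), 1.06 in RPOA-2 and 0.98 in GRWD-1 strains, and the next peak, at F27D9.9 and stn-2, rose by 0.68 (adjusted p = 2.75e-10). The 12 further peaks within 20 kb of unc-18 lay between -0.23 and 0.05, with a lowest adjusted p of 0.17.

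**Figure D5:**
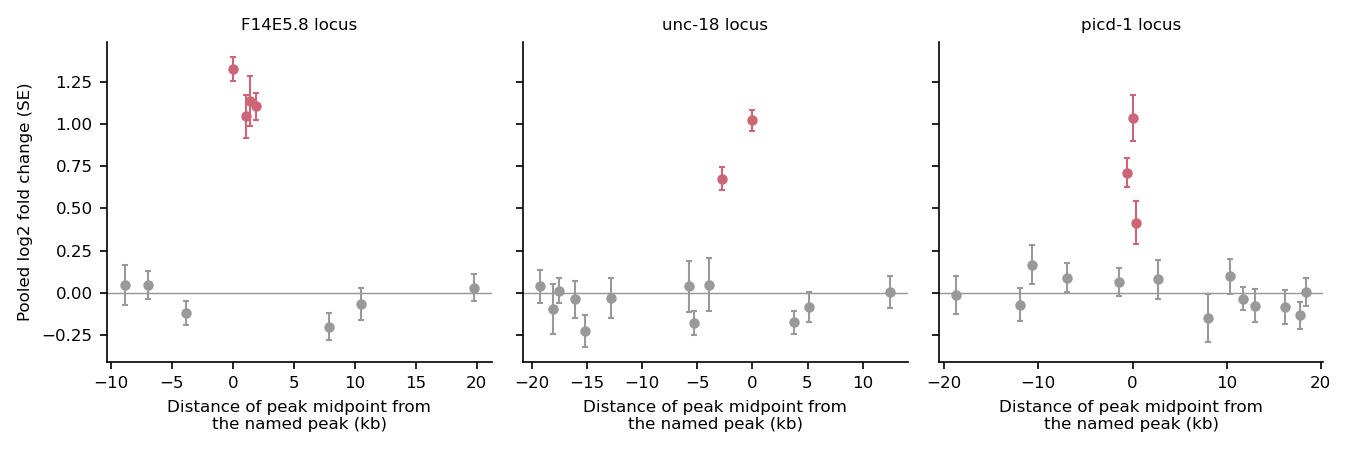
Pooled log2 fold change and its SE for every peak within 20 kb of the 3 largest rises, by distance of the midpoints in kb. Red points are increased DARs and grey points were not called. The rises span 2.86 kb at F14E5.8, 5.44 kb at unc-18 and 1.33 kb at picd-1, with flanking peaks near 0.

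The peaks at F14E5.8 and unc-18 rose in all 8 pairs, and both stayed DARs in every alternative fit that was run. The difference between RPOA-2 and GRWD-1 strains did not pass the threshold at either (adjusted p = 0.991 and 0.979, edgeR). All depleted strains carry the same kind of transgene, and its place in the genome is not given in the sources used here. An inserted transgene, an altered stretch of the chromosome in the strain that carried it and a change in chromatin cannot be told apart at these loci from reads in peaks. The same holds for the short stretch of rises at rps-27 and picd-1. At the gene whose promoter drives TIR1, which the annotation calls eef-1A.1 (WBGene00001168, chromosome III), the peak from 6969946 to 6972381 had 161 to 193 CPM in undepleted larvae (median 172) and 179 to 234.6 CPM in depleted larvae (median 201). Its log2 fold change was 0.24 (SE 0.0623, adjusted p = 0.0177, edgeR), and all 8 pairs rose, but the peak was not called without replicate 2 of the undepleted (adjusted p = 0.0743) or depleted GRWD-1 strain (0.0655), nor with the intergenic share as a covariate (0.342, all edgeR). The peaks at rpoa-2, grwd-1 and eor-1 had log2 fold changes of -0.22, -0.05 and -0.06 (adjusted p = 0.535, 0.89 and 0.825, edgeR).

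The other 9 of the 12 largest rises with all 8 pairs higher had values from 0.66 to 0.91. They were nearest to F19B10.13, R03H10.6 and F10E7.11 on chromosome II, C39D10.7, M163.15, C15B12.3 and mrp-2 on chromosome X, Y111B2A.32 on chromosome III in an intron of aakg-1, and WBGene00077556 on chromosome I. The midpoint was intergenic in 6 of them. At F19B10.13 (chromosome II, 3661907 to 3662564), where the arms did not overlap, the level was 22.9 to 34.99 CPM in undepleted and 40.7 to 76.0 CPM in depleted larvae (log2 fold change 0.91, SE 0.0827, adjusted p = 8.45e-12, edgeR). The gene mrp-2 encodes a transporter of the multidrug resistance family, and its upstream peak had 27.3 to 52.6 CPM in undepleted and 49.4 to 79.9 CPM in depleted larvae, a log2 fold change of 0.69 (SE 0.076, adjusted p = 3.49e-09, edgeR). Of the 12 largest rises, 10 remained DARs with the intergenic share as a covariate, the exceptions being C39D10.7 and the pseudogene WBGene00077556.

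Increases were also found at stress and signalling genes. Among 62 peaks of stress response genes, 5 were increased (8.06%, beside 2.41% of all peaks) and 0 decreased, with a median of -0.00145 over all 62. They were at sod-4, a superoxide dismutase (0.45), the small heat shock protein genes hsp-12.6 (0.43) and hsp-43 (0.41), atfs-1, the factor of the mitochondrial unfolded protein response (0.37), and hif-1, the hypoxia factor (0.24). At hsp-43 the arms did not overlap, with 114 to 128 CPM in undepleted and 142 to 188 CPM in depleted larvae (SE 0.0653, adjusted p = 2.33e-05, edgeR). The number of increased stress peaks was 1 without replicate number 2, 1 without the replicate number in the fit and 0 with the intergenic share as a covariate. Nuclear hormone receptor genes held 9 increased (2.44%) and 3 decreased peaks (0.813%) among 369, close to the shares over all peaks, with nhr-78 and nhr-157 the largest increases (0.44 and 0.43). The increased peaks of this list numbered 2 without replicate number 2, 1 without the replicate number in the fit and 5 to 16 with 1 library left out. Of 128 peaks at homeobox genes, 4 were increased (3.12%, near the share of all peaks) and 0 decreased, at ceh-74, ceh-86, ttx-1 and lin-11 (0.31 to 0.35). None of these 4 was called without replicate number 2, without the replicate number in the fit or with the intergenic share as a covariate.

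Innate immunity genes held 4 increased (1.08%) and 6 decreased peaks (1.62%) among 370, where all peaks gave 2.41% and 1.31%. The decreased peaks numbered 2 without replicate number 2, 1 with the intergenic share as a covariate and 1 without the replicate number in the fit. The steepest decrease was at nlp-33 (WBGene00003771), an antimicrobial peptide gene of the epidermis, where 65.5 to 113 CPM in undepleted larvae (median 88.5) became 53.8 to 64.9 CPM in depleted larvae (median 55.6). The log2 fold change was -0.60 (SE 0.0709, adjusted p = 2.29e-08, edgeR), with -0.62 and -0.58 in RPOA-2 and GRWD-1 strains and no overlap of the arms, and its relatives nlp-26 and nlp-24 had -0.35 and -0.27. Insulin, TOR and starvation genes held 3 increased peaks (hlh-30, pdk-1 and akt-2) and 5 decreased peaks (daf-12, daf-16 at 2 peaks and hlh-30 at 2 peaks) among 106, which is 2.83% and 4.72%. Without replicate number 2, and likewise without the replicate number in the fit, 0 were increased and 1 was decreased. At hlh-30, a factor of autophagy and lipid use, peaks of a single gene therefore moved in opposite directions, and daf-16, the FOXO factor of insulin signalling, had -0.23 at each of its peaks. Neuropeptide genes had 0 DARs among 91 peaks, cell cycle entry genes 1 increase among 76 at cdk-4 (0.26), and EOR-1 and Ras pathway genes 1 increase among 74 at mpk-1 (0.35). The hedgehog- and patched-related genes had 1 increase, at ptr-24 (0.49), and 1 decrease, at ptr-18 (-0.35), among 138 peaks.

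Marker genes of the tissues were looked at in the same way, since whole larvae were used and fewer cells of a tissue cannot be told apart from less open chromatin per cell. Epidermis and seam markers had 3 decreased peaks (5.77%, beside 1.31% of all peaks) among 52, at col-10, rol-6 and ajm-1, and 1 increased (1.92%, beside 2.41%) at rnt-1. Of the 52 peaks 40 were below 0, with a median log2 fold change of -0.10, beside 131 of 189 and -0.08 for the collagens, which the epidermis expresses. Their reads came to 1860 to 1998 CPM in undepleted and 1674 to 1888 CPM in depleted larvae. Intestine markers had 23 of 33 peaks below 0 (median -0.08) and 2 decreased peaks, both at the protease gene cpr-6, and 1 increased, at the ferritin gene ftn-1, with sums of 1034 to 1122 and 928 to 1061 CPM. Body wall muscle markers had 1 of each among 88, neuron markers 2 increased among 76, germline markers 1 increased among 43 (mex-3), and pharynx markers 0 among 43. The summed reads of each list overlapped between the arms. The part of tissue makeup in the DARs was not tested.

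The DARs were spread over all chromosomes but not with equal density. Chromosome X held 103 of the 383 decreased DARs (26.9%) and 20.2% of all peaks, and 146 of the 702 increased DARs (20.8%). Autosome arms held 18.5% of the decreased DARs and 36.04% of the increased DARs, beside 37.6% of all peaks. The decreased DARs formed 268 loci when DARs within 10 kb were joined, of which 29 had 3 or more DARs and the largest had 6, whereas the 702 increased DARs formed 627 loci with 10 of 3 or more. Summed over chromosomes, the shares of reads moved little. Chromosome IV was the single class in which all 8 pairs moved the same way, with 14.3% to 14.5% of reads in undepleted and 14.3% to 14.8% in depleted larvae, higher in all 8 pairs by a mean of 0.17 percentage points (exact permutation within pairs, two-sided p = 0.00781, the smallest that 8 pairs can give, and 0.0938 adjusted over 12 peak classes). None of the 12 classes, which also covered arms, coding starts, peaks of 2 kb or more and tRNA and snoRNA genes, passed the threshold after adjustment.

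A single peak passed the threshold for a difference between the depletion effects. It lies on chromosome V from 9317893 to 9318644 over F44A2.10, a tRNA gene and the start of kvs-3. The GRWD-1 depleted libraries held 889, 631, 1102 and 230 reads there, and the other 12 libraries held between 0 and 4 reads each. The peak counts among the 702 increased DARs, but its reads came from the GRWD-1 depleted strain (adjusted p = 4.35e-05 for the difference, edgeR), so it does not describe both depletions. Here too, altered DNA in the strain and a change in chromatin cannot be told apart from reads in peaks.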

How the data were processed

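Nuclei of L1 larvae were profiled by ATAC-seq, and the authors deposited whole-number read counts per merged peak, made with featureCounts 2.0.1. The reads were not reprocessed. The members and gene lists were chosen with earlier results of these data known. All 16 libraries were grouped from their labels, and all 29131 peaks were kept. Counts were scaled by TMM and tested with edgeR 4.0.16 in R 4.3.3 (glmQLFit and glmQLFTest) for the pooled depletion effect, with degron and replicate number as covariates. The study handled 1 replicate of each strain together in each of 4 batches. The sample titles give the replicate number and not the batch, so the link between number and batch was assumed. The SE is the log2 fold change divided by the square root of F. Adjusted p-values are Benjamini-Hochberg values over all peaks. Peaks were assigned to the nearest transcript start of Ensembl release 115 (WBcel235). No genome sequence was used, so no sequence is shown.

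Peaks were named by rule: among DARs with all 8 pairs moving alike, the top 12 in each direction by fold change, 1 per 10 kb, up to 2 called rises and 2 called falls per gene list, and the peaks at eef-1A.1, rpoa-2, grwd-1, eor-1 and the rRNA genes. Further called peaks of the gene lists, dpy-13 and sqt-3 among them, were named beyond this rule. Loci of 3 or more DARs were named after their values were seen. Shares of reads were compared by exact permutation within the 8 pairs. Deviations of same-numbered libraries correlated at 0.13 to 0.46 for number 1 and 0.19 to 0.44 for number 2, but at 0.0064 to 0.10 for number 3 and -0.02 to 0.11 for number 4. In data simulated for the pooled comparison on 29131 peaks, the test recovered 32.8% of peaks changed 1.25-fold, 86.6% at 1.5-fold and 100% at 2-fold, with 6 false calls among 152. The simulated counts were drawn from the fitted model itself and hold no variation between growths. Their false calls therefore do not measure those among the real DARs. Alternatives covered scaling, filters, DESeq2 1.42.0, factors of unwanted variation, thinning and left-out libraries.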

Additional observations from a re-analysis of the deposited data

Results flagged for a closer look

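In 86 groups of 8 libraries examined, a library standing apart from the other 7 was found 7 times, and chance gives about 1 in 20. The values were 35.1 CPM at F14E5.8 in undepleted GRWD-1 replicate 4, 42.2 CPM at R03H10.6 and 107 CPM at znf-782 in undepleted RPOA-2 replicate 4, and 106 CPM at col-10 in undepleted GRWD-1 replicate 2. In depleted RPOA-2 replicate 3 the values were 23.8 CPM at WBGene00077556 and 23.8 CPM at R02E4.3. Chromosome IV held 14.3% of reads in depleted GRWD-1 replicate 4, apart from the other depleted libraries.

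The peak at F44A2.10 differed between the depletions, with fitted log2 fold changes of -1.44 in RPOA-2 and 9.62 in GRWD-1 strains (adjusted p = 4.35e-05, edgeR). As the other 12 libraries held 0 to 4 reads, these fitted values depend on the prior count.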

How the results depend on the processing

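The count of DARs depended on the fit more than their direction did. With the share of reads in intergenic peaks as a covariate, 637 of the 702 increased and all 383 decreased DARs kept their sign. The fits draw on the libraries that called the DARs, so a kept sign is a description only. Without the replicate block, 92 peaks were increased and 99 decreased. The counts were 393 and 220 with libraries thinned to the shallowest, 150 and 32 in RPOA-2 strains only, 121 and 149 in GRWD-1 strains only, 302 and 154 at an adjusted p under 0.01, and 53 and 183 with the share of reads in intergenic peaks as a covariate, an alternative chosen after seeing the data. Leaving out a library or a replicate number gave 117 to 1005 increased and 120 to 405 decreased peaks. Increased DARs numbered 117 without replicate number 2 and 316 without number 3, and 379, 423, 427 and 403 without replicate 2 of undepleted RPOA-2, depleted RPOA-2, undepleted GRWD-1 and depleted GRWD-1 strains. Decreased DARs numbered 120 without number 2, 168 without number 3, and 217, 242 and 247 without undepleted GRWD-1 replicate 2, depleted GRWD-1 replicate 2 and depleted GRWD-1 replicate 3. The cause was not tested.

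The difference between both depletions was called at 3 peaks with 2 factors of unwanted variation and no replicate block, which changes both choices, and at 0 to 2 peaks with a library left out. Without the rRNA peaks, the differences in read shares changed sign at chromosome I (0.0217 percentage points), II (-0.0975), V (-0.0226) and X (-0.0434) and at autosome arms (0.181). With a pair left out, chromosome II ranged from -0.0188 to 0.0726 and tRNA peaks from -0.124 to 0.103. With the intergenic share as a covariate, emg-1 (-0.0086), rps-24 (-0.054), pdk-1 (-0.0044) and atgl-1 (-0.058) changed sign, and 39 of the 86 named peaks kept direction and call. In the fit without the replicate block 45 did. A correction for GC content was not run.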
